A study of Mus musculus with 12 samples.

Results

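The semaphorins, the plexins that bind them and the neuropilins that serve as co-receptors were examined in mouse embryonic lungs in which FGF10 signalling had been blocked or raised for a few hours. Genes were taken by symbol alone, as every semaphorin of classes 3 to 7, every plexin of classes A to D and both neuropilins on the array. This gave 31 of 20738 named genes, made up of 20 semaphorins, 9 plexins and 2 neuropilins. They were measured by 41 array features, and for the 10 genes with 2 features the brighter one was used. No gene was removed for a low value.

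The series holds 12 one-colour arrays in 4 groups of 3 replicates, called independent in the labels. All lungs were of strain C57bl/6J, and the study dissected them from embryos at an early branching stage. Loss-of-function (LOF) lungs were labelled Rosa26rtTAtet(O)solubleR2b and had 6 h or 9 h of doxycycline, which induces a soluble form of FGFR2b, the receptor of FGF10, so that the ligand is trapped outside the cell. Gain-of-function (GOF) lungs were labelled Rosa26rtTAtet(O)fgf10 and had 9 h of doxycycline, which induces the ligand itself. In both lines the transactivator is driven from the Rosa26 locus in all cells, so neither transgene is limited to a cell type. Control lungs were wild-type without doxycycline by their labels, but the study's own methods describe them as littermates from doxycycline-treated mothers that carry the transactivator only. Those methods describe no GOF lungs. The study's text took its array controls at both 6 h and 9 h, mostly at 6 h, whereas the labels give the controls no time. The sources differ on these points. A difference from control may thus include that of genotype, of doxycycline or of sampling time. None of these can be told apart from the difference in FGF10 signalling. The RNA was that of whole lungs, in which fewer cells of a type and less RNA per cell cannot be told apart.

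Semaphorins are secreted or membrane-bound proteins that share a sema domain and were first known for turning growing axons away. Plexins are their receptors, whose intracellular part acts on small GTPases and so on the cytoskeleton and on integrin adhesion. Most class 3 semaphorins, which are secreted, cannot bind plexins alone and need a neuropilin, while the membrane-bound classes 4 to 7 bind plexins directly. Neuropilins also bind VEGF, which ties the family to blood and lymph vessels. In the embryonic lung, semaphorins, plexins and neuropilins are known in the epithelium, the mesenchyme and the vessels, and class 3 semaphorins were found to alter branching in lung explants.

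The promoters of a pair of the genes are given, as Sema4f stood apart in the LOF lungs and Nrp2 shows the GC-rich start site that was common in the family. Each is the 250 bases before the start of the gene in RefSeq on GRCm38.p6, read 5′ to 3′ on the strand of the gene. Sema4f lies on the minus strand with its window at chr6:82939770-82940019, and Nrp2 on the plus strand with its window at chr1:62703067-62703316. Capitals mark matches on either strand to the letters CCGGAA (the core bound by ETS factors such as ETV4 and ETV5), CTTTGA (a TCF/LEF core) or GGGCGG (a GC box), and overlapping matches run together.
Sema4f: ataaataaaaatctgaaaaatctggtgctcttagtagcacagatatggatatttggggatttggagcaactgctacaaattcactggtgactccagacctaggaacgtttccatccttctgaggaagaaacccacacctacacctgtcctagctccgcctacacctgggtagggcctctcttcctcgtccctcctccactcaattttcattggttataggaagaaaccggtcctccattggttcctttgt
Nrp2: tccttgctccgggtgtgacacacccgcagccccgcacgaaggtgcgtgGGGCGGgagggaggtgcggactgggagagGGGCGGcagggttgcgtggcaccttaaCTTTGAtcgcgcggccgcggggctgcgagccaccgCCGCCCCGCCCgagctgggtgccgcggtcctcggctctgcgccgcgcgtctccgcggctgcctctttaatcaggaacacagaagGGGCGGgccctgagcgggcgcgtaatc

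RefSeq windows, from 250 bases before to 50 after the start, were found for 26 of the 31 genes, with 37 windows in all. A GC box stood in 27 of these windows, or 72.97%, against 35.66% of the 32851 windows of all genes. The ETS core was found in 4 windows of the family, or 10.81%, against 14.9% of all windows, and the TCF/LEF core in 3, or 8.108%, against 16%. The median GC content was 63.67% in the family and 52.67% over all genes. The Sema4f window held none of the motifs and had a GC content of 48.7%, and 3 of the 26 genes, Sema4f among them, had a window this low or lower. Nrp2 held 5 GC boxes and a TCF/LEF core in the bases shown. A match is a description of letters and not of a bound site.

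Values are log2 signals after normalization between arrays, on which the median feature read 2.98 and the upper quartile 6.01. All 31 genes had a mean above that median and 21 a mean above that quartile. The brightness of a feature depends on its probe, so levels were compared only within a gene. Arrays correlated with those of their own group at 0.974 to 0.980. The lung markers Nkx2-1, of the epithelium, and Tbx4, of the mesenchyme, were bright on every array, at 8.45 to 9.65 and 10.50 to 11.23. A list of 12 genes of the distal tip epithelium, where FGF10 acts, lay below the control mean on every LOF array. Its distance from that mean was -0.91 to -0.86 at LOF 6 h and -1.51 to -1.34 at LOF 9 h. The mean of a list of 12 general epithelial genes lay within -0.20 and 0.11 on all arrays. Single genes of that list went both ways, from -0.73 to 0.49 at LOF 6 h and from -0.61 to 0.52 at LOF 9 h. It includes Nkx2-1 and Grhl2, which the study counted among the factors repressed on these LOF arrays. Most genes of the tip list were named by the study as falling on these LOF arrays, so this decrease is no independent check. Heart genes stood out among the lists of other tissues: their mean lay at least 0.70 above the control mean on each LOF 6 h array, -0.33 to 0.42 on LOF 9 h arrays, -0.94 to -0.40 on GOF arrays and -0.56 to 0.62 on the control arrays themselves. Genes of neural crest, neurons and glia lay 0.41 to 0.96 above the control mean on LOF 6 h arrays. They lay -0.03 to 0.14 from it on LOF 9 h arrays and -0.27 to 0.16 on the control arrays. Erythroid genes lay 0.68 to 1.01 above the control mean on LOF 6 h arrays, but the controls themselves spread from -0.51 to 0.66. Macrophage genes lay -0.41 to -0.21 from it on the GOF arrays, below every control, and smooth muscle genes at -1.04 on GOF 1, -0.24 on GOF 2 and 0.01 on GOF 3.

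**Figure D1:**
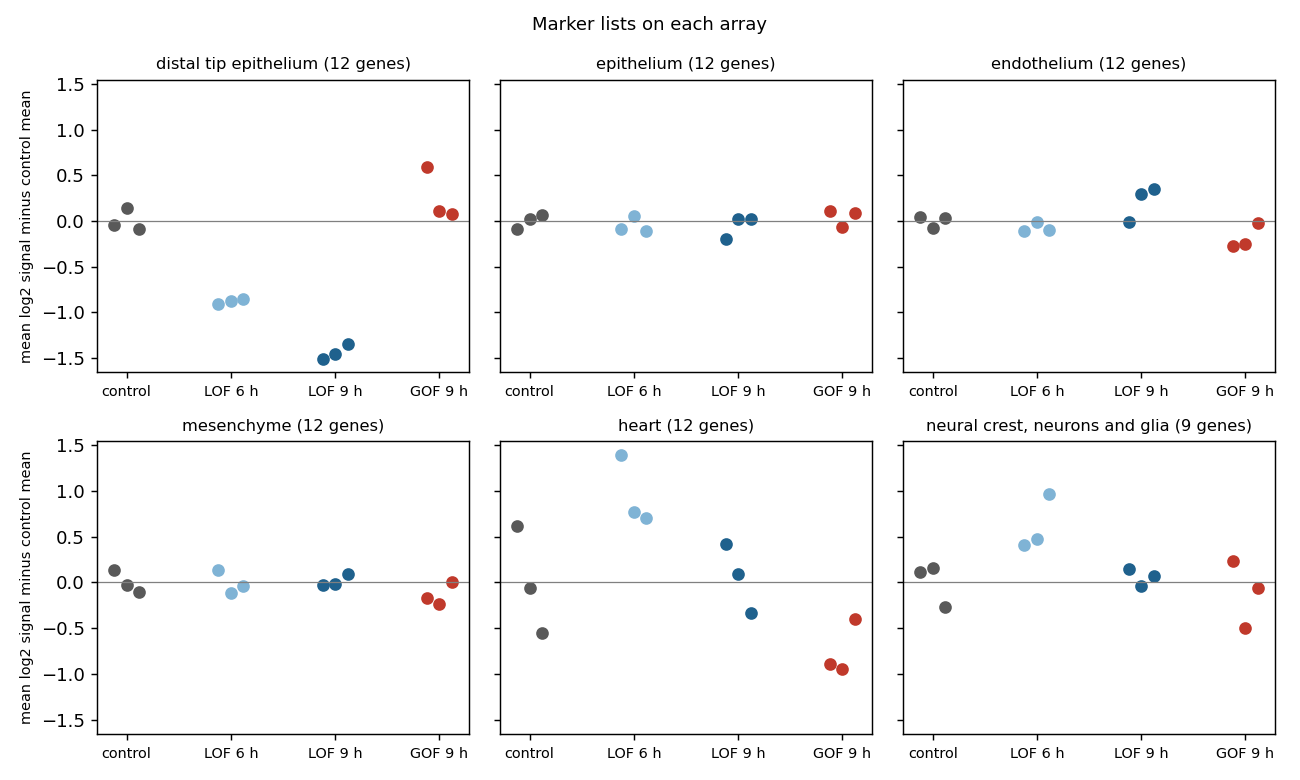
Mean log2 signal of the genes of 6 marker lists on each array (points), minus the mean of the 3 control arrays (vertical axis), by group (horizontal axis). The distal tip list separates both LOF groups from the rest, and the heart list is highest on the LOF 6 h arrays and spread over more than 1 log2 unit among the controls.

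No semaphorin, plexin or neuropilin passed the test in any of the 5 comparisons between groups (limma, Benjamini-Hochberg adjusted over all genes, threshold 0.05). Few genes of any kind passed: 15 genes or 0.0723% in LOF 6 h against control, 15 or 0.0723% in LOF 9 h against control, 0% in GOF against control, 13 or 0.0627% in LOF 9 h against LOF 6 h, and 58 or 0.28% in GOF against LOF 9 h. With about 0.28% of genes called at most, a count of 0 among 31 genes is close to the background. The first 3 of these comparisons share their control arrays. A looser measure gave the same reading. At an unadjusted p under 0.05, 3 of the 31 genes stood in LOF 6 h against control where 9.36% of all genes did, 1 in LOF 9 h where 7.92% did, 3 in GOF where 5.15% did, 1 in LOF 9 h against LOF 6 h where 10.2% did, and 3 in GOF against LOF 9 h where 11.9% did.

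The family's differences were small in most of its genes. The median difference from control was 0.07 at LOF 6 h, 0.06 at LOF 9 h and -0.02 in GOF lungs, against 0.02, -0.00 and 0.00 over all genes. At LOF 6 h 23 of the 31 genes were higher than control in the mean and 8 lower, at LOF 9 h 18 and 13, and in GOF 15 and 16. Of all 20738 genes, 11092, 10363 and 10444 were higher. The 95% confidence interval lay within a 2-fold change either way for 25 genes at LOF 6 h, 25 at LOF 9 h and 23 in GOF, and within a 1.5-fold change for 10, 9 and 8 of them. Over all 20738 genes the counts were 12684, 13025 and 13154 within 2-fold and 5872, 6076 and 6652 within 1.5-fold. Sema4f lay wholly beyond 1.5-fold at both LOF times. For the other genes of the family outside the 1.5-fold count, the interval reached past 1.5-fold, so the absence of such a change is not shown.

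**Figure D2:**
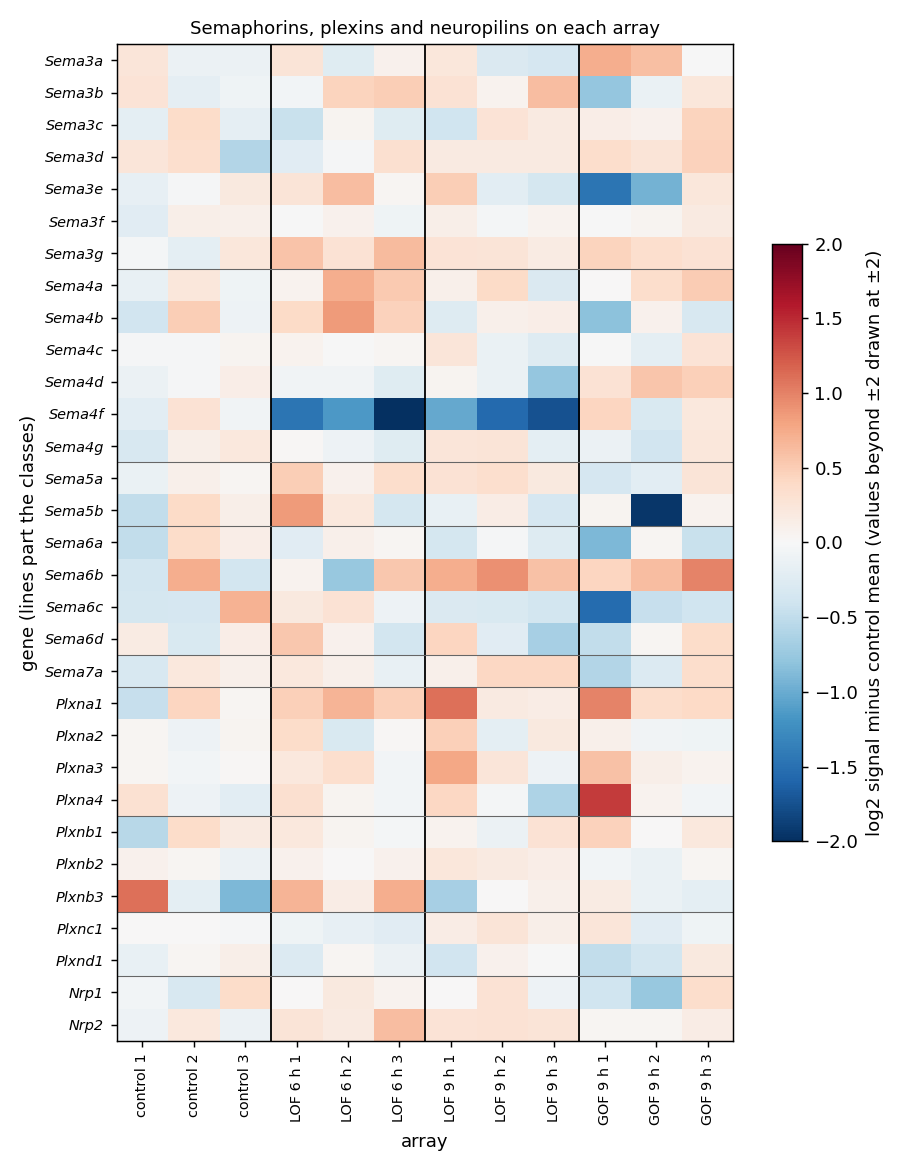
Log2 signal of each of the 31 genes (rows, ordered by class) on each of the 12 arrays (columns), minus the mean of the 3 control arrays, in colour (red higher, blue lower). Sema4f is the row with the strongest blue on all 6 LOF arrays, -2.60 to -1.02 from the control mean, and most other rows stay pale.

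Sema4f, a membrane-bound class 4 semaphorin known from the nervous system, gave the largest differences of the family. In the study's separate array of wild-type distal lung tips, it was among the genes highly enriched in epithelium over mesenchyme. On the arrays used here, the log2 signal of Sema4f was 5.89, 6.39 and 6.03 in control. It was 4.64, 4.96 and 3.51 on the LOF 6 h arrays. It was 5.08, 4.56 and 4.37 on the LOF 9 h arrays. All 6 LOF arrays lay below all 3 controls, and the LOF times overlapped. On the GOF arrays it was 6.54, 5.79 and 6.31, which overlapped the controls and lay above every LOF array. The difference from control was -1.74 ± 0.36 (SE, 95% interval -2.54 to -0.93) at LOF 6 h, or a level 0.3 of control, with an adjusted p of 0.185. At LOF 9 h it was -1.44 ± 0.36 (-2.24 to -0.63), or 0.369 of control, with an adjusted p of 0.298. The GOF lungs differed from control by 0.11 ± 0.36 (-0.69 to 0.91) and from LOF 9 h by 1.55 ± 0.36 (0.74 to 2.35), with an adjusted p of 0.114 for the latter. The LOF times differed from each other by 0.30 ± 0.36. None of these passed the adjusted threshold, although the 95% intervals of both LOF differences excluded 0.

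When both LOF groups were set against control and GOF together, 6 arrays against 6, Sema4f fell by 1.64 ± 0.26 on the log2 scale (95% interval -2.21 to -1.07), to 0.321 of the level in the other arrays. It passed the test, with an adjusted p of 0.0278 in limma. It was the only gene of the family to do so, where 0.564% of all genes passed. At an unadjusted p under 0.05 the family counted 6 genes where 12.5% of all genes did, and the 6 LOF arrays were clear of the other 6 in 1 of the 31, against 1.79% of all genes. This grouping was chosen after the values had been seen, and the study's own text picked Sema4f from these LOF arrays, so it is no independent evidence of the decrease. The call was also close to the threshold. It was lost without any 1 of 7 arrays (adjusted p of 0.0570 to 0.0807, difference -1.71 to -1.56), with replicate number as a block (0.0602), with the level of the Y-linked genes as a covariate (0.0503) and with the heart list as a covariate (difference -1.92, adjusted p of 0.534).

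A second Sema4f feature, on another transcript record, read between 1.47 and 2.84 on all 12 arrays, below the median feature of an array, and so gave little information. It differed from control by -0.20 at LOF 6 h and -0.44 at LOF 9 h. Sema4f lies on chromosome 6 of GRCm38.p6, at 82911884 to 82939769. The distal tip list was lower in both LOF groups, but most of its genes, like Sema4f, were named by the study from these LOF arrays. On the LOF 6 h arrays the heart and neural lists were higher than on any control. On the LOF 9 h arrays both overlapped their control range. The part of these lists in the Sema4f difference was not tested further.

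**Figure D3:**
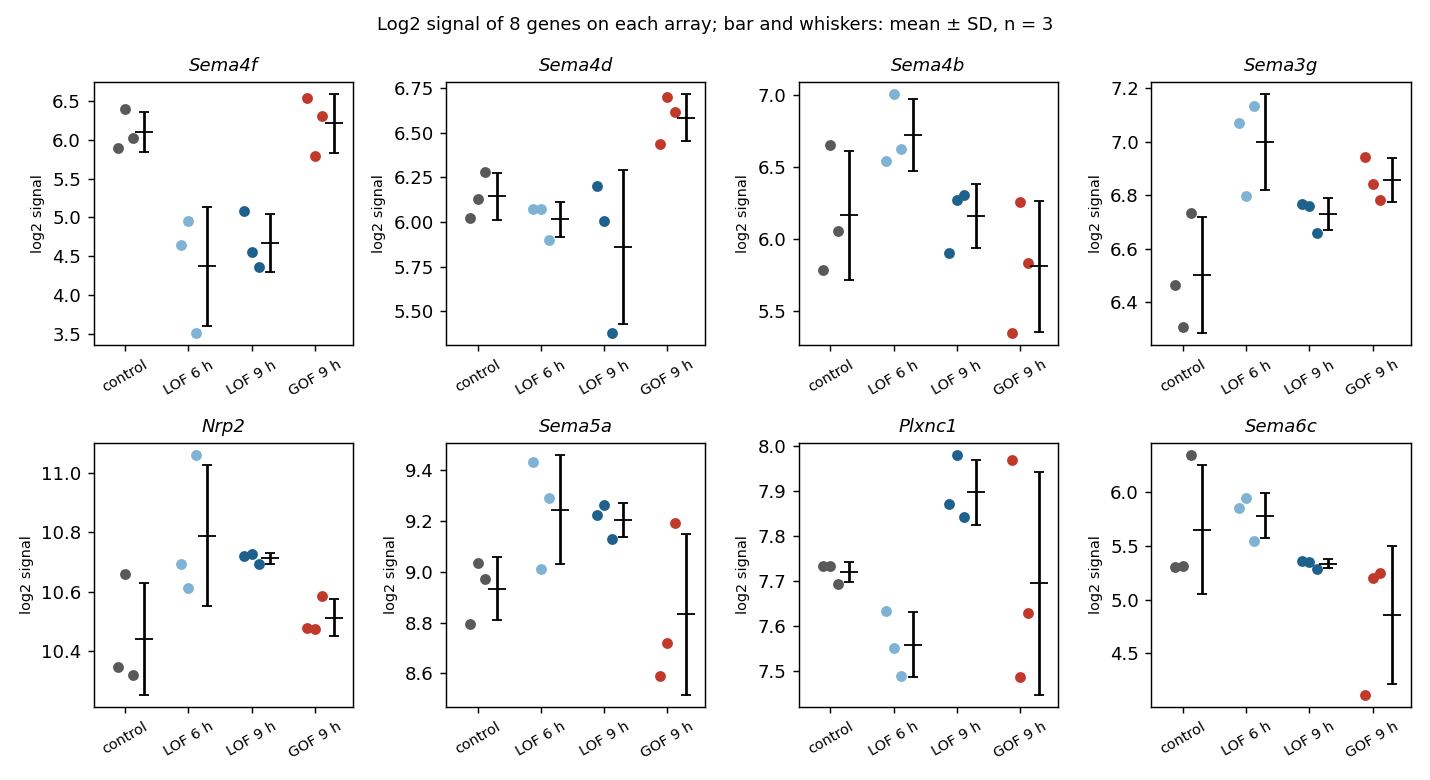
Log2 signal (vertical axes, each with its own range) of 8 genes of the family on every array by group, with the mean ± SD of 3 arrays beside the points. Sema4f spans about 3 log2 units and separates LOF arrays from control and GOF arrays, while the other genes differ by less than 1 log2 unit between group means.

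None of the other class 4 semaphorins passed the test. Sema4d, which acts through plexin B1 and in immune cells through CD72, read 6.02, 6.13 and 6.28 on the control arrays. It read 6.07, 6.07 and 5.90 at LOF 6 h, 6.20, 6.00 and 5.38 at LOF 9 h, and 6.44, 6.70 and 6.62 in GOF lungs. The 3 GOF arrays were the highest of all 12. The difference between GOF and LOF 9 h was 0.73 ± 0.20 (95% interval 0.28 to 1.17, adjusted p of 0.164), and that between GOF and control 0.44 ± 0.20 (adjusted p of 0.955), so neither passed. The former came to an adjusted p of 0.0495 where only genes above the 50th percentile of mean signal were tested. Sema4b read 5.78, 6.66 and 6.06 in control and 6.54, 7.01 and 6.62 at LOF 6 h, groups that overlapped, with a difference of 0.56 ± 0.28. Its values at LOF 9 h, 5.91, 6.27 and 6.30, were all below those at LOF 6 h, by 0.56 ± 0.28 in the mean. Sema4c, a ligand of plexin B2, read between 12.22 and 12.75 on all arrays and differed from control by 0.04, -0.05 and 0.02 at LOF 6 h, LOF 9 h and GOF, with each 95% interval within -0.41 and 0.39. Sema4a and Sema4g differed from control by at most 0.43 in any group.

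Among the secreted class 3 semaphorins none passed the test. Sema3f, which signals through neuropilin 2, was the steadiest, at 9.49 to 9.89 on all 12 arrays, with differences from control of 0.00, 0.05 and 0.07 and 95% intervals within -0.29 and 0.36. Sema3a, the classical repellent that binds neuropilin 1, read 8.12, 7.76 and 7.75 in control, 8.10, 7.59 and 7.54 at LOF 9 h and 8.61, 8.48 and 7.87 in GOF lungs. The GOF and LOF 9 h arrays overlapped, and their means differed by 0.58 ± 0.24 (adjusted p of 0.368). Sema3e, which binds plexin D1 without a neuropilin and guides vessels, read 5.09, 5.24 and 5.45 in control and 3.80, 4.31 and 5.48 in GOF, where 1 array reached the controls and the others lay below. Its GOF difference was -0.73 ± 0.39. The lowest value was that of GOF 1, on which the smooth muscle list was also lowest, and the part of that list was not tested. Sema3b, Sema3c, known for its part in the cardiac outflow tract, and Sema3d each differed from control by less than 0.40 in every group. A dimmer Sema3c feature gave -0.73 ± 0.41, -0.58 ± 0.41 and -0.47 ± 0.41 at LOF 6 h, LOF 9 h and GOF.

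Sema3g, a ligand of neuropilin 2 found in vessels, depended on the feature read. By the brighter feature it read 6.46, 6.31 and 6.73 in control and 7.07, 6.80 and 7.13 at LOF 6 h. The groups did not overlap, and the difference was 0.50 ± 0.15 (95% interval 0.17 to 0.82, adjusted p of 0.311). It read 6.77, 6.76 and 6.66 at LOF 9 h and 6.94, 6.84 and 6.78 in GOF, the latter above every control. The dimmer feature read 3.70, 3.05 and 2.78 in control and 1.59, 2.46 and 1.98 at LOF 6 h, a difference of -1.16, which is opposite in sign. The features target different transcript records, most values of the dimmer one lie below the median feature of an array, and which represents the gene was not tested.

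Of the remaining membrane-bound classes, Sema5a, which carries thrombospondin repeats, read 8.79, 9.03 and 8.97 in control, 9.43, 9.01 and 9.29 at LOF 6 h, 9.22, 9.26 and 9.13 at LOF 9 h and 8.59, 8.72 and 9.19 in GOF. The LOF 9 h arrays lay above all controls by 0.27 ± 0.18 in the mean, whereas the GOF arrays overlapped them. GOF differed from LOF 9 h by -0.37 ± 0.18 (adjusted p of 0.451). Sema5b ranged from 2.40 to 5.19 and had the widest interval of the class, with a difference from control of -0.61 ± 0.51 in GOF that rests on 1 array at 2.40.

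In class 6, whose members bind class A plexins, Sema6c read 5.30, 5.31 and 6.34 in control and 4.11, 5.20 and 5.25 in GOF. These groups did not overlap, yet the gap between the nearest arrays was small and each mean was drawn out by a single array, GOF 1 in the GOF group. The difference was -0.80 ± 0.34 (adjusted p of 0.955). Sema6b, a ligand of plexin A4, read 3.88, 4.96 and 3.88 in control, 4.31, 3.48 and 4.78 at LOF 6 h, 4.96, 5.15 and 4.82 at LOF 9 h and 4.66, 4.86 and 5.23 in GOF. Its mean at LOF 9 h was 0.74 ± 0.36 above control (adjusted p of 0.676), with overlapping arrays. Sema6a and, by its brighter feature, Sema6d differed from control by -0.44 to 0.08. The dimmer Sema6d feature read 4.44, 3.47 and 3.51 in control, 3.47, 2.35 and 2.21 at LOF 6 h and 3.07, 2.62 and 3.13 in GOF, and its LOF 9 h arrays lay within the control range. Its differences from control were -1.13 ± 0.36 (adjusted p of 0.374), 0.04 ± 0.36 and -0.86 ± 0.36 (adjusted p of 0.951). Sema7a, which is anchored to the membrane by a lipid and binds plexin C1 and β1 integrins, read 5.93, 6.47 and 6.36 in control, 6.36, 6.67 and 6.67 at LOF 9 h and 5.67, 5.98 and 6.61 in GOF, all overlapping.

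None of the 9 plexins passed the test either. Plxnc1, the receptor of Sema7a, read 7.73, 7.73 and 7.69 in control, 7.63, 7.55 and 7.49 at LOF 6 h, 7.87, 7.98 and 7.84 at LOF 9 h and 7.97, 7.49 and 7.63 in GOF. Every LOF 6 h array lay below the controls and every LOF 9 h array above them. The differences from control were -0.16 ± 0.14 and 0.18 ± 0.14, and that between the times was 0.34 ± 0.14 (adjusted p of 0.447). A dimmer Plxnc1 feature gave -0.97 ± 0.44 and -0.08 ± 0.44 from control, both negative, and 0.89 ± 0.44 between the times. Plxnb2, known from repair of the kidney epithelium, read 11.64, 11.59 and 11.44 in control and 11.79, 11.73 and 11.69 at LOF 9 h, without overlap but with a difference of only 0.18 ± 0.11. In GOF it read 11.50, 11.43 and 11.60, below every LOF 9 h array, with a difference of -0.23 ± 0.11. Plxnd1, the plexin of vessels, read 12.09, 12.27 and 12.35 in control and differed from it by -0.11, -0.10 and -0.22 at LOF 6 h, LOF 9 h and GOF, with intervals within -0.67 and 0.35.

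The class A plexins, which pair with neuropilins for class 3 ligands, were led by Plxna1. It read 4.28, 5.18 and 4.78 in control, 5.22, 5.43 and 5.22 at LOF 6 h, 5.85, 4.94 and 4.89 at LOF 9 h and 5.73, 5.11 and 5.14 in GOF. Its mean was above control in all 3 other groups, by 0.54 ± 0.30, 0.48 ± 0.30 and 0.58 ± 0.30, and these differences share the control arrays, of which control 1 was low. Plxna2 differed from control by at most 0.16 and Plxna3 by at most 0.31. Plxna4 differed by 0.47 ± 0.38 in GOF, where 1 array read 7.51 and the others 6.18 and 6.06. Plxnb1 differed by at most 0.23. Plxnb3 was dim and variable, at 4.31, 3.01 and 2.32 on the control arrays alone.

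The neuropilins did not pass. Nrp2, the co-receptor of Sema3f and, with VEGF-C, of lymph vessels, read 10.35, 10.66 and 10.32 in control, 10.69, 10.61 and 11.06 at LOF 6 h, 10.72, 10.73 and 10.69 at LOF 9 h and 10.48, 10.47 and 10.58 in GOF. The LOF 9 h arrays lay above every control and every GOF array, while control 2 reached into the LOF 6 h range. The difference from control was 0.35 ± 0.15 at LOF 6 h (95% interval 0.02 to 0.68, adjusted p of 0.510) and 0.27 ± 0.15 at LOF 9 h (adjusted p of 0.726). A dimmer Nrp2 feature gave 0.23 ± 0.34 and 0.30 ± 0.34. On that feature the LOF 9 h arrays overlapped both the controls and the GOF arrays. The endothelial marker list lay -0.11 to -0.01 from the control mean at LOF 6 h, -0.01 to 0.35 at LOF 9 h and -0.27 to -0.02 in GOF, and its part in the Nrp2 values was not tested. Nrp1, the co-receptor of Sema3a and of VEGF-A, read 6.74, 6.49 and 7.18 in control and differed from it by 0.09, 0.07 and -0.26, each ± 0.27.

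**Figure D4:**
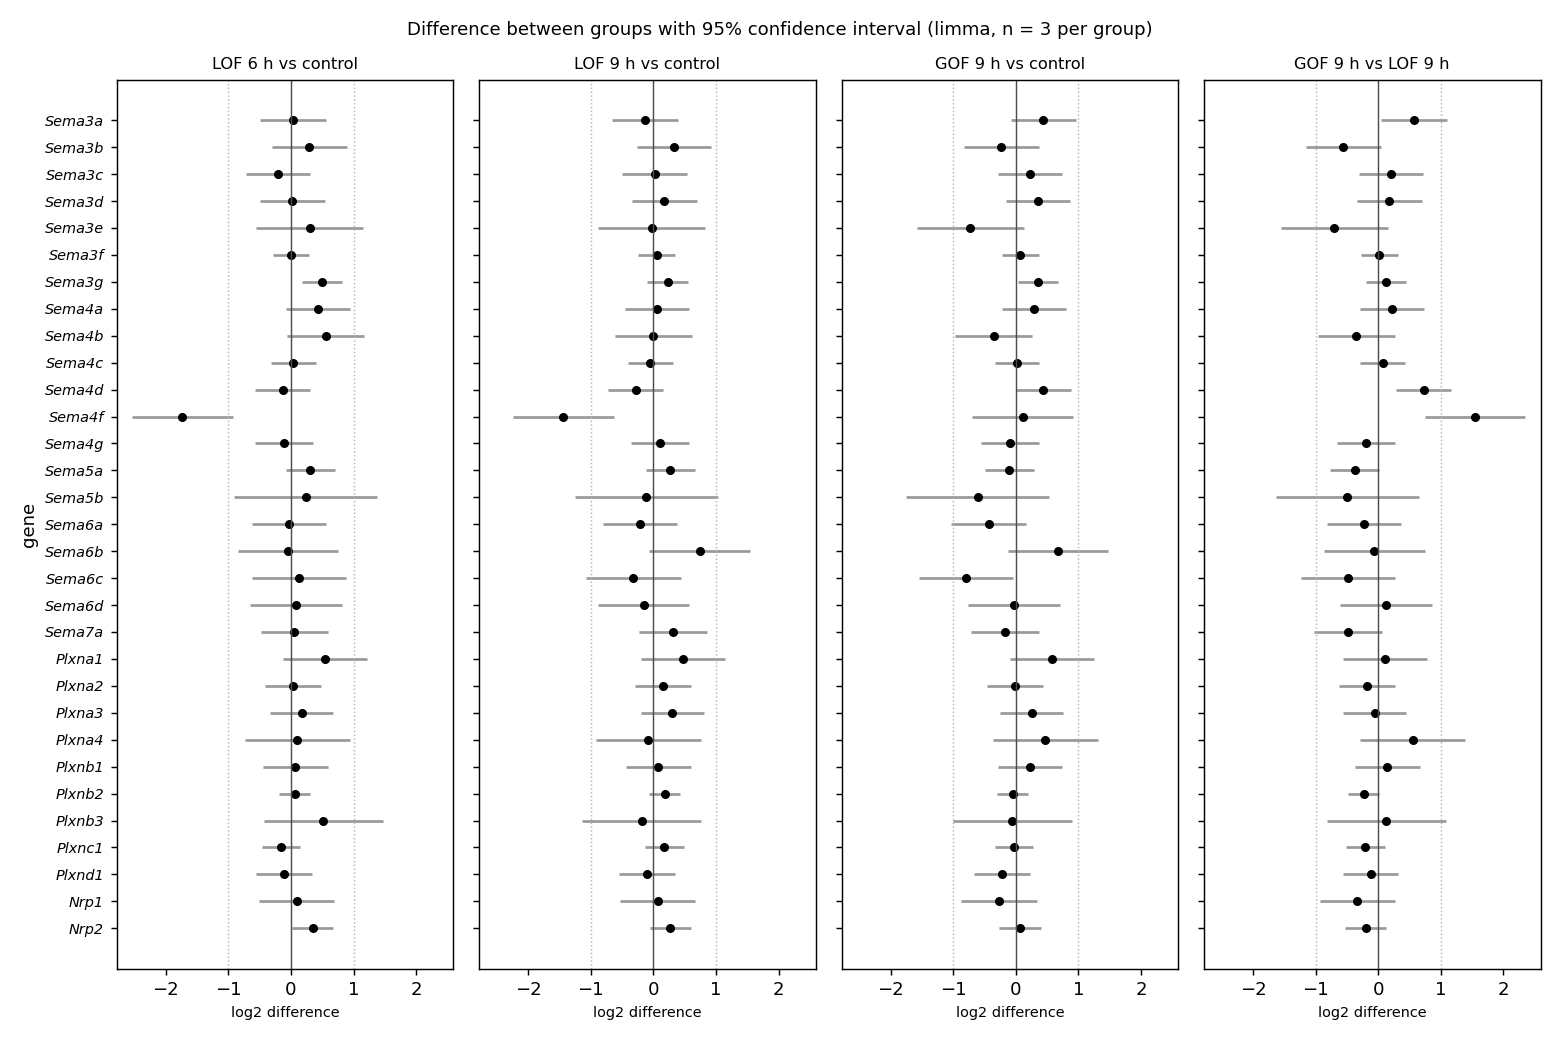
Log2 difference (horizontal axis, dots) with its 95% confidence interval (lines) of each of the 31 genes (rows) in 4 comparisons (panels), with dotted lines at 2-fold. Sema4f lies beyond all others in both LOF panels and in GOF against LOF 9 h, and most other intervals cross 0 within 2-fold.

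Separation of the arrays without overlap was about as common in the family as among all genes. It held for 4 of the 31 genes between LOF 6 h and control, where 16.4% of all genes did not overlap, for 5 between LOF 9 h and control (15.4%), for 4 between GOF and control (9.42%), for 7 between LOF 9 h and LOF 6 h (17.6%) and for 7 between GOF and LOF 9 h (17.8%). Between GOF and LOF 9 h, Sema3d, Sema3g, Sema4d and Sema4f were higher in GOF and Nrp2, Plxnb2 and Sema6c lower. The SD of a gene's 3 arrays had a median of 0.25 over the family and its groups.

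The partners and effectors of the family were taken as further lists. Of 14 receptor partners, 8 VEGF ligands and receptors and 25 measured intracellular effectors of plexins, none passed in any of the 5 comparisons. At an unadjusted p under 0.05, against control, the partners counted 2, 2 and 2 genes at LOF 6 h, LOF 9 h and GOF, the VEGF list 3, 1 and 1 and the effectors 3, 3 and 2. The share of all genes at that p was 9.36%, 7.92% and 5.15%. The 3 of 8 VEGF genes at LOF 6 h is above that share, with 1 gene higher and 2 lower than control. The 3 of 25 effectors is near it at LOF 6 h. Their median differences were 0.04, 0.05 and -0.25 for the partners, -0.03, -0.03 and -0.23 for the VEGF list and 0.04, 0.03 and 0.03 for the effectors. Vegfd, a growth factor of lymph vessels, read 9.01, 8.96 and 9.69 in control and 7.97, 7.93 and 7.93 at LOF 6 h, without overlap, with a difference of -1.27 ± 0.25 (adjusted p of 0.146). At LOF 9 h it read 8.71, 9.19 and 9.50, which overlapped the controls. Vegfa, the main growth factor of blood vessels, differed by -0.90 ± 0.27 at LOF 6 h (adjusted p of 0.323). Mst1r, the receptor RON that can pair with plexin B1, read 6.28, 5.79 and 5.87 in control and 7.07, 6.84 and 6.55 at LOF 9 h, with a difference of 0.84 ± 0.19 (adjusted p of 0.258). Nrcam, an adhesion molecule that pairs with neuropilins in axons, differed by -1.02 ± 0.19 between GOF and LOF 9 h (adjusted p of 0.0638) without passing. Dpysl3, one of the proteins that carry the Sema3a signal to the cytoskeleton, read 10.98, 10.91 and 10.78 in control, 11.28, 11.11 and 11.46 at LOF 6 h, 11.13, 11.30 and 11.26 at LOF 9 h and 10.52, 10.54 and 10.70 in GOF. Its 6 LOF arrays lay above all others. In both LOF groups against the rest it rose by 0.52 ± 0.09 (adjusted p of 0.0427 in limma). It was the only effector to pass in this grouping, where 0.564% of all genes passed. The grouping was chosen with the values known, and the alternatives were not examined for Dpysl3.

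Set beside other guidance families, none of 21 Eph receptors and ephrins and none of 18 Slits, Robos, netrins and netrin receptors passed in the 5 comparisons. Their counts at an unadjusted p under 0.05 against control were 2, 5 and 0 for the first list and 1, 1 and 1 for the other, where 9.36%, 7.92% and 5.15% of all genes stood. The 5 of 21 Eph receptors and ephrins at LOF 9 h is above that share, with 1 gene higher and 4 lower than control. In both LOF groups against the rest, the ephrin Efna1 rose by 0.65 ± 0.11 (adjusted p of 0.0387 in limma). It was the only gene of these families called, where 0.564% of all genes were. That grouping was chosen with the values known, and the alternatives were not examined for Efna1. Its receptor Epha2 differed from control by -1.45 ± 0.37 at LOF 9 h (adjusted p of 0.298). Dcc, a netrin receptor, differed from control by -1.88 ± 0.36 at LOF 6 h (adjusted p of 0.146). The median difference from control of the Eph and ephrin list was 0.15 at LOF 6 h, -0.07 at LOF 9 h and 0.06 in GOF, and that of the netrin and Slit list 0.11, -0.03 and -0.05, so the medians of all these families lay within 0.2 of control, as did that of the semaphorin family.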

How the data were processed

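RNA from whole embryonic mouse lungs was hybridised to 12 one-colour arrays. As the study's methods give it, the authors corrected mean spot signals for background (NormExp on negative controls), took logarithms and applied quantile normalization with limma. The deposited values are log2 intensities per feature, for 62976 features, and 10 were missing. They ran from 1.44 to 15.92, from which log base 2 was taken.

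Current mouse symbols were given to features through the platform's accessions and symbols, which gave 31465 features 1 gene and left 31511 unnamed. For each of 20738 genes the feature with the highest mean was kept, with no filter on dim features. One linear model per gene, on group means over the 12 arrays, was fitted in limma 3.58.1 under R 4.3.3, with moderated statistics (8 residual degrees of freedom, a prior of 2.27). P-values are two-sided and Benjamini-Hochberg adjusted over all genes. The median standard error over all genes was 0.265. The script was tested on simulated data.

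The members and the lists of partners, effectors, other families and tissues were chosen with earlier results of these data known. Named genes were the brightest member of each class, the 4 members with the smallest p in a comparison and genes of the study's text. Further members were named after their values were seen. Alternatives were other normalizations, filters, variance models, covariates, feature choices and the removal of each array. Of 27 effectors 25 were measured. Replicate numbers were not used for pairing. The number of arrays limits the precision.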

Additional observations from a re-analysis of the deposited data

Results flagged for a closer look

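Plxnc1 was below every control array at LOF 6 h and above every control array at LOF 9 h, by -0.16 and 0.18 on the log2 scale, so that the differences from control had opposite signs at the 2 times by the brighter feature. By the dimmer feature, whose mean of 4.30 was above the array median, they were -0.97 and -0.08, of the same sign. By the brighter feature the difference between the times was 0.34 ± 0.14 (unadjusted p of 0.0332, adjusted p of 0.447 in limma), which did not pass after adjustment over all genes. It was the only result to stand out in this way.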

How the results depend on the processing

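Of 619 values of 26 named differences under the alternatives, 596 kept their direction and side of the threshold, 8 changed sign, 4 passed the threshold where they had not and 11 lost it. All 11 belong to Sema4f in both LOF groups against the rest: besides those given with the result, the other feature alone gave -0.45. Sema4f passed with trend and robust variance at LOF 6 h (adjusted p of 0.0195) and in GOF against LOF 9 h (0.0154), and in the latter above the 50th percentile (0.0327). The cause was not tested. By the other feature alone, the sign changed for Sema3g in GOF against control (-0.17), LOF 6 h against control (-1.16) and LOF 9 h against LOF 6 h (0.44) and for Sema4f in LOF 9 h against LOF 6 h (-0.24). By the mean of features Sema3g gave -0.33 at LOF 6 h and 0.085 between the LOF times. Without 1 array Sema4f gave -0.052 (GOF replicate 1) to 0.32 in GOF against control and -0.13 (LOF 6 h replicate 3) to 0.59 between the LOF times.

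Counts of called genes follow in the order LOF 6 h, LOF 9 h and GOF against control, LOF 9 h against LOF 6 h, GOF against LOF 9 h, and both LOF groups against the rest, naming those that moved by over 1.5 times. Above the 25th percentile they were 27 between the LOF times, 143 and 223. Above the 50th they were 29, 55, then 116, 452 and 489. With trend and robust variance they were 122, 104, 3, 161, 500 and 547. With array weights they were 24 at LOF 6 h and 36 between the LOF times. With only the groups compared they were 3, 4, then 0 and 16. With control and LOF arrays only they were 24 at LOF 9 h and 26 between the LOF times. With the heart list as a covariate they were 1, 9, then 2, 9 and 4. With the Y-linked level they were 1 between the LOF times, 21 and 73. Leaving out 1 array gave 2 to 39, 7 to 33, 0, 1 to 49, 13 to 61 and 32 to 142 genes.

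Of the 31 genes, 1 was called at LOF 6 h and 1 in GOF against LOF 9 h with trend and robust variance, and 2 in the latter above the 50th percentile. In both LOF groups against the rest the count was 0 with the heart, Y-linked or replicate block terms and 0 to 1 without 1 array. The labels do not say that replicate numbers pair arrays, so no pairing was assumed. Same-number correlations of deviations were 0.084 to 0.103 for number 1, -0.003 to 0.059 for number 2 and -0.001 to 0.043 for number 3. Arrays of number 1 correlated at -0.090 to -0.005 with the other numbers, and 10 of 12 arrays were closest to their own number. Arrays of number 2 correlated with those of number 3 at -0.021 to 0.066, so these numbers were not set apart from each other. This is a hint, from the data only, of an effect shared by the arrays of number 1, which the main fit leaves out. The replicate block gave 6 genes at LOF 6 h, 5 between the LOF times, 22 in GOF against LOF 9 h and 40 in both LOF groups against the rest, and in the last it took Sema4f to an adjusted p of 0.0602.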
